A study of Solanum virginianum with 24 samples.

Results

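Gene expression of young eggplant fruit 10 days post anthesis (dpa), in the phase of early growth, was set against that of fruit taken on the day of anthesis, 0 dpa. The members were taken by sample title: the 3 arrays of 10 dpa and the 3 arrays of 0 dpa that were normalised together with them, so 6 of the series' 24 deposited columns, which stand for 15 distinct arrays. Of the chip's 10209 probe sets, the AFFX- controls were left out and 10101 were tested. Among those tested, 909 carried a gene symbol in the platform annotation, for 802 genes.

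Both groups were fruit of the cultivar PPL, for which the labels name no transgene or treatment, from glasshouse plants whose flowers were pollinated by hand when they opened. The title and labels call the plants eggplant, while the organism field gives Solanum virginianum. Total RNA of frozen fruit was labelled with biotin and hybridised to the Affymetrix tomato GeneChip, so tomato probes read eggplant transcripts, and gene names and roles are those of tomato. The labels call the 3 samples of a stage biological replicates, but nothing says whether they came from separate plants, so p-values measure only the spread between these samples.

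A young fruit of the nightshade family grows from an ovary that is set free to develop by pollination. Cell division comes first and is followed by cell expansion, in which walls are loosened, water enters the vacuole and sugars are imported. Such fruit is green, and its plastids turn into chloroplasts with photosystems in their membranes. Ethylene, the gaseous hormone best known from ripening, is made from methionine by way of ACC (1-aminocyclopropane-1-carboxylate) and acts through receptors that hold their pathway off until they bind it.

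The deposited values were on the log2 scale and centred, so that the median of each probe set over the 6 arrays was 0. They therefore hold differences between arrays but no signal level, and presence or absence of a transcript, or of a marker of fruit tissue, cannot be read from them. Below, a value on an array is its log2 value minus the mean of the 3 arrays of 0 dpa, and a difference is the mean of 10 dpa minus that of 0 dpa, with its standard error from limma. A gene is said to rise or fall where its p, adjusted by Benjamini-Hochberg over all 10101 probe sets, was under 0.05. In bulk tissue, fewer cells of a type and less RNA per cell cannot be told apart.

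Expression differed widely between the stages. Of the 10101 probe sets 3567 (35.3%) passed, 1607 (15.9%) higher and 1960 (19.4%) lower at 10 dpa, and the median difference of all probe sets was -0.03. Large changes leaned the other way: 352 probe sets (3.48%) rose and 192 (1.9%) fell at least 2-fold. In 4713 probe sets (46.7%) the arrays of the stages did not overlap. The median standard deviation over the 3 arrays was 0.107 in each group. Of the genes with a symbol, 147 rose (18.3%) and 201 fell (25.1%). With LOC numbers left out, 111 of 626 rose (17.7%) and 165 fell (26.4%). These last shares are the background for the gene lists below, whose members have such names.

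Among genes with a symbol other than a LOC number, those that rose most were of the photosynthetic apparatus, joined by an ACC oxidase gene, ACO5. All 7 photosystem and light-harvesting genes measured rose at least 2.83-fold and had a median difference of 3.00, against -0.03 for all probe sets tested. PSBP, which encodes an outer protein of the water-splitting complex of photosystem II, stood at 4.14, 4.08 and 4.19 on the arrays of 10 dpa and at 0.053, 0.039 and -0.092 on those of 0 dpa. PsbQ, for its neighbour in that complex, stood at 3.71, 3.76 and 3.85 at 10 dpa and at 0.21, -0.28 and 0.065 at 0 dpa. PSBO, for the subunit that stabilises the manganese cluster, gave 2.99, 2.91 and 3.09 against 0.0017, -0.20 and 0.20. In all 3 genes the stages were far apart and the arrays of 10 dpa close together. In fold terms PSBP was 17.6-fold higher (adjusted p = 5.76e-09), PsbQ 13.7-fold (adjusted p = 1.06e-07) and PSBO 7.99-fold (adjusted p = 2.01e-07). PSBR, for a smaller photosystem II protein, rose less, with values of 1.45, 1.52 and 1.55 at 10 dpa, 0.088, -0.055 and -0.033 at 0 dpa and a difference of 1.51 ± 0.080.

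The light-harvesting genes, whose chlorophyll-binding products feed energy to the photosystems, differed in the size of their rise. CAB6A stood at 3.06, 2.99 and 3.14 at 10 dpa and -0.038, 0.014 and 0.024 at 0 dpa, a difference of 3.06 ± 0.077 (adjusted p = 2.08e-08). CAB4 gave 2.84, 2.85 and 2.94 against 0.11, -0.090 and -0.022, a difference of 2.88 ± 0.084 (adjusted p = 5.53e-08). CAB5 was the lowest of the 7, at 1.59, 1.09 and 1.82 against -0.16, 0.16 and 0.0075, with a difference of 1.50 ± 0.17 (adjusted p = 0.000202). PETE, for plastocyanin, the copper protein that carries electrons to photosystem I, rose too, from -0.17, -0.13 and 0.30 to 1.62, 1.72 and 1.73 (difference 1.69 ± 0.13, adjusted p = 1.57e-05).

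**Figure D1:**
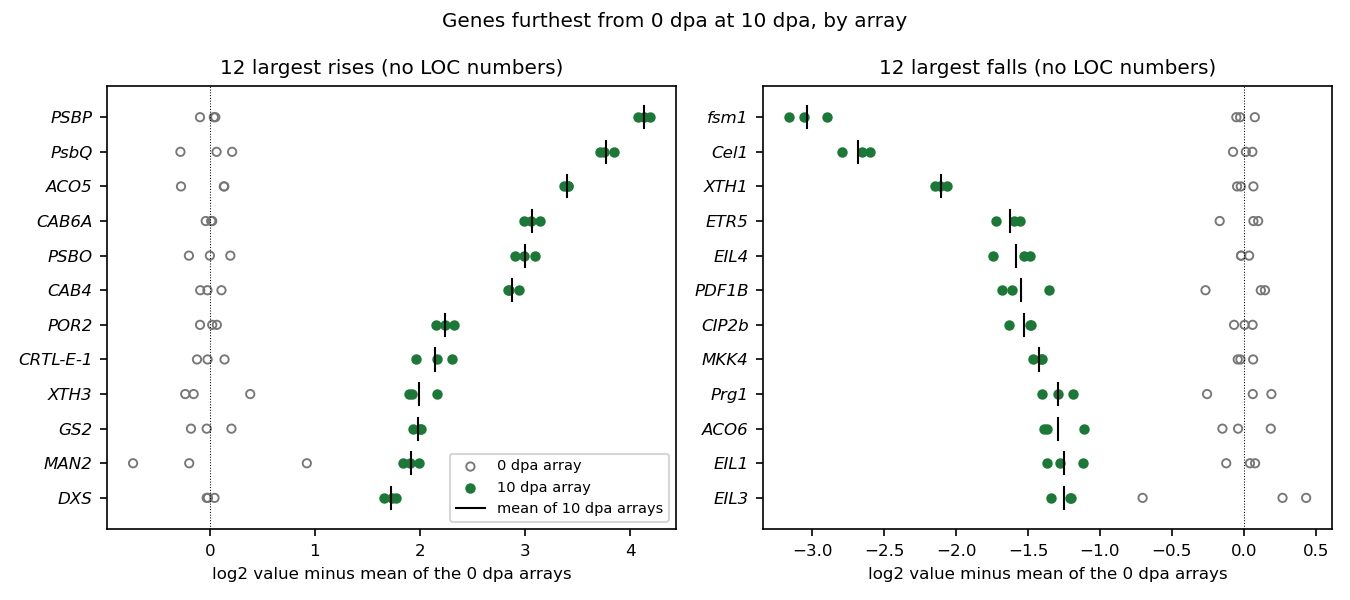
Log2 values minus the mean of the 0 dpa arrays (horizontal axis) for the 12 genes with the largest rises (left) and the 12 with the largest falls (right) among genes whose symbol is not a LOC number; open circles are the 3 arrays of 0 dpa, filled circles the 3 of 10 dpa and bars the mean of 10 dpa. No gene has overlapping groups, and the 0 dpa arrays of MAN2 and EIL3 are spread more widely than those of the other genes shown.

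Of the 3 genes on chlorophyll, haem and bilin synthesis, 2 rose (66.7%, background 17.7%). POR2, a protochlorophyllide oxidoreductase gene of the light-dependent step to chlorophyll, stood at 2.16, 2.32 and 2.24 at 10 dpa and at -0.092, 0.024 and 0.068 at 0 dpa (4.72-fold higher, adjusted p = 2.22e-07). GSA-AT, for the aminotransferase that makes the common precursor 5-aminolevulinate, stood at 1.36, 1.72 and 1.78 against -0.14, -0.035 and 0.18 (3.07-fold, adjusted p = 2.25e-05). AUREA, which makes the phytochrome chromophore on the haem branch, was at -0.016 ± 0.10 and did not pass. The precursor and chlorophyll steps thus stood higher on every array of 10 dpa than on any of 0 dpa. Of 4 genes of carbon fixation and electron transport, 1 rose, 2 fell and 1 did not pass (25% higher and 50% lower, background 17.7% and 26.4%). PPCK2, for a kinase that activates phosphoenolpyruvate carboxylase, fell 2.33-fold (adjusted p = 1.02e-05), from -0.13, 0.025 and 0.10 to -1.17, -1.21 and -1.27. TPI, triosephosphate isomerase, was at 0.12 ± 0.13 and did not pass.

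Of 16 plastid isoprenoid and carotenoid genes 3 rose, 4 fell and 9 did not pass, with a median of -0.07. These shares (18.8% and 25%) are near those of all probe sets (15.9% and 19.4%), so the account here is of single genes. DXS, for the first enzyme of isoprenoid synthesis in plastids, stood at 1.73, 1.77 and 1.66 at 10 dpa and -0.017, 0.046 and -0.029 at 0 dpa (3.3-fold higher, adjusted p = 5.79e-07). CRTL-E-1, lycopene epsilon-cyclase, which sends lycopene to the lutein branch, stood at 2.31, 1.97 and 2.17 against -0.020, -0.12 and 0.14 (4.43-fold, adjusted p = 1.4e-06). The third that rose was CrtR-b1, a beta-carotene hydroxylase gene (0.39 ± 0.078). The desaturases between phytoene and lycopene went the other way. PDS, phytoene desaturase, stood at -1.05, -1.38 and -1.30 at 10 dpa and 0.17, -0.085 and -0.086 at 0 dpa, 2.37-fold lower (adjusted p = 4.74e-05), and ZDS, zeta-carotene desaturase, fell (difference -0.42 ± 0.086). HDS, of the plastid isoprenoid pathway (-0.43 ± 0.073), and CCD1A, a carotenoid cleavage dioxygenase gene (-0.39 ± 0.072), fell as well. All 7 calls of this list were kept under each of the 12 alternatives. For the phytoene synthases PSY2 was at -0.013 ± 0.086, and Psy1 was at 0.019 ± 0.16 (adjusted p = 0.946) on the probe set that stood for the gene. The other Psy1 probe sets gave -0.60 (lower) and 0.22 (did not pass), so its direction depends on the probe set read.

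Nitrogen and amino acid genes gave 3 rises and 7 falls among 21 (14.3% and 33.3%, background 17.7% and 26.4%), with a median of -0.06. GS2, the plastid glutamine synthetase that takes up ammonium from photorespiration and nitrate reduction, stood at 1.93, 2.01 and 2.00 at 10 dpa and at -0.029, -0.18 and 0.21 at 0 dpa (3.95-fold higher, adjusted p = 1.73e-06). GABA-TP2, a transaminase gene of GABA breakdown, stood at 1.06, 1.02 and 1.24 against -0.15, -0.069 and 0.22 (2.16-fold, adjusted p = 9.57e-05). Of its relatives, GABA-TP3 fell (difference -0.51 ± 0.11), and GABA-TP1 was at -0.060 ± 0.079 and did not pass. Among transporters, AAP2, an amino acid permease gene, was at -0.74 ± 0.089 and ProT1, a proline transporter gene, at -0.69 ± 0.078, both lower. PRO2, of proline synthesis (-0.34 ± 0.077), and the leucine aminopeptidase gene LAPA1 (-0.56 ± 0.085) fell too.

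In ethylene synthesis most genes that moved fell, but the largest change was a rise: 2 of 14 rose, 5 fell and 7 did not pass, with a median of -0.08. The shares were 14.3% and 35.7%, background 17.7% and 26.4%. ACO5, for ACC oxidase, the enzyme of the last step, stood at 3.37, 3.41 and 3.41 on the arrays of 10 dpa and at 0.13, 0.14 and -0.27 on those of 0 dpa, 10.5-fold higher (adjusted p = 1.37e-07). ACO6, from the same enzyme family, stood at -1.11, -1.37 and -1.39 against -0.039, -0.15 and 0.19, 2.44-fold lower (adjusted p = 4.31e-05). Its other probe sets were at -1.68 and -1.39, both lower. ACO4 fell too (-0.68 ± 0.091), so that members of this family moved in opposite directions on arrays that did not overlap. The S-adenosylmethionine synthetase genes, whose product is the precursor of ACC, were split in the same way. SAM1 stood at -0.81, -0.96 and -0.80 against 0.037, 0.011 and -0.048 (difference -0.86 ± 0.080), whereas SAM3 stood at 0.93, 0.97 and 1.02 against 0.21, -0.20 and -0.0033 (difference 0.97 ± 0.11). Among the ACC synthase genes, ACS2 was at 0.18 ± 0.10 (adjusted p = 0.222) and ACS4 at -0.092 ± 0.10, neither of them passing. The falls of ACS5 (-0.30) and ACS6 (-0.52) were lost in several alternatives: for ACS5 without 0 dpa replicate 2 (0.0504), without 0 dpa replicate 3 (0.0722), without 10 dpa replicate 2 (0.0765), without 10 dpa replicate 3 (0.0698), with a range over alternatives 0.0233 to 0.0765 for its adjusted p, and for ACS6 in the methods' t-test (0.186), without 0 dpa replicate 1 (0.129), without 0 dpa replicate 3 (0.115), without 10 dpa replicate 1 (0.126), without 10 dpa replicate 3 (0.124), with a range over alternatives 0.00891 to 0.186.

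Of 31 genes of ethylene perception and response 2 rose (6.45%), 11 fell (35.5%) and 18 did not pass, with a median of -0.13. The background shares were 17.7% and 26.4%, and those of all probe sets 15.9% and 19.4%. ETR5, an ethylene receptor gene, stood at -1.72, -1.56 and -1.60 at 10 dpa and 0.10, -0.17 and 0.067 at 0 dpa, 3.09-fold lower (adjusted p = 3.59e-06). ETR1, another receptor gene, fell by less (-0.39 ± 0.090), and ETR6 (-0.081 ± 0.089) did not pass. Of the 4 genes for EIN3-like transcription factors, which switch on the targets of the pathway, 3 fell by more than 1 log2 unit. EIL4 stood at -1.53, -1.49 and -1.74 against -0.018, -0.019 and 0.037 (3-fold lower, adjusted p = 2.5e-06). EIL1 stood at -1.28, -1.12 and -1.37 against -0.12, 0.079 and 0.043 (2.38-fold, adjusted p = 1.7e-05). EIL3 stood at -1.21, -1.34 and -1.20 against 0.27, -0.70 and 0.43 (2.38-fold, adjusted p = 0.00474). The arrays of 0 dpa were widely spread for EIL3, and its call was lost in the methods' t-test (adjusted p = 0.0789, range over alternatives 2.03e-05 to 0.0789). EIL2 was at -0.027 ± 0.093 and did not pass.

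Downstream, among the ethylene response factors, PTI6 (-1.02 ± 0.12) and JERF3 (-0.81 ± 0.13) fell, while ERF4 rose from 0.087, -0.16 and 0.077 to 0.80, 1.08 and 1.10 (difference 0.99 ± 0.11). E8, an ethylene-responsive gene of tomato ripening, rose by 0.34 ± 0.10 (adjusted p = 0.0287), a call lost in the methods' t-test (0.0929), without 0 dpa replicate 1 (0.0503), without 0 dpa replicate 2 (0.0976), without 10 dpa replicate 2 (0.0988), with a range over alternatives 0.0239 to 0.0988. Of the 13 perception and response genes that passed, 7 passed under every alternative.

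**Figure D2:**
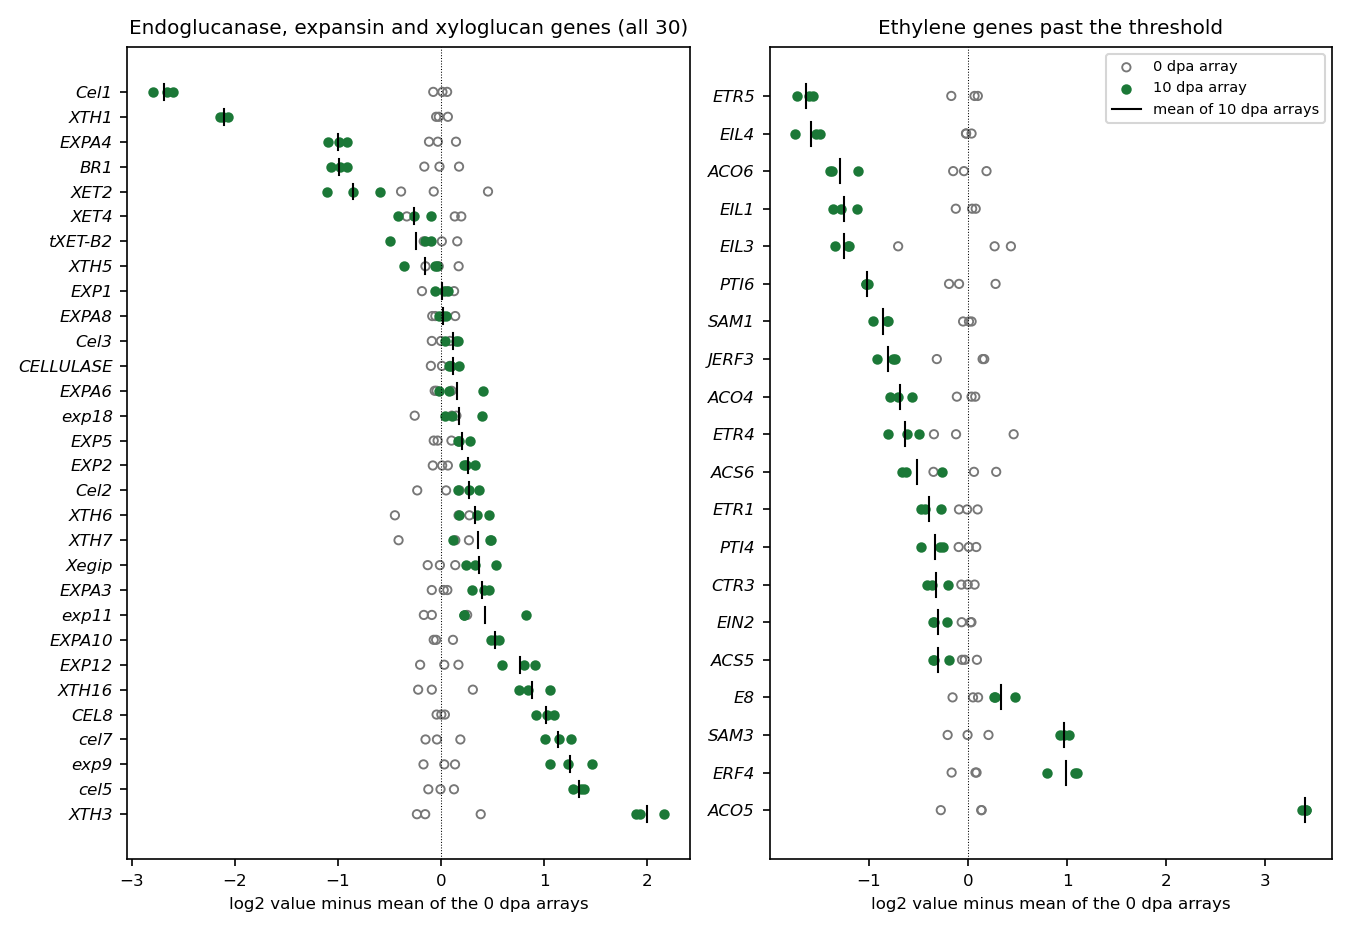
Log2 values minus the mean of the 0 dpa arrays (horizontal axis) for all 30 endoglucanase, expansin and xyloglucan genes (left) and for the ethylene genes that passed (right); open circles are the arrays of 0 dpa, filled circles those of 10 dpa and bars the mean of 10 dpa. XTH3 and Cel1 mark the ends of the wall genes, and ACO5 stands apart from the other ethylene genes.

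Genes acting on cellulose and xyloglucan in the wall moved in both directions: of 30, 11 rose, 5 fell and 14 did not pass, with a median of 0.23. The shares were 36.7% and 16.7%, background 17.7% and 26.4%. Xegip, for an inhibitor of xyloglucan endoglucanase, was among those that rose (0.37 ± 0.11). Among endo-beta-glucanase genes, Cel1 stood at -2.60, -2.66 and -2.79 at 10 dpa and -0.075, 0.060 and 0.015 at 0 dpa, 6.42-fold lower (adjusted p = 8.27e-08). The opposite was seen for cel5, at 1.28, 1.39 and 1.36 against 0.13, -0.12 and -0.0040 (2.54-fold higher, adjusted p = 6.72e-06). For cel7 the values were 1.26, 1.01 and 1.15 against -0.15, 0.19 and -0.039 (2.2-fold, adjusted p = 6.71e-05). CEL8 rose as well (1.02 ± 0.080), while Cel3 (0.12 ± 0.083) did not pass.

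Xyloglucan endotransglucosylase/hydrolases cut and rejoin the tethers between cellulose fibrils, and their genes were split too. XTH1 stood at -2.06, -2.11 and -2.14 against -0.021, -0.047 and 0.067, 4.31-fold lower (adjusted p = 1.78e-07). XTH3 stood at 1.93, 1.89 and 2.17 against 0.39, -0.23 and -0.15, 3.99-fold higher (adjusted p = 2.28e-05). XTH16 rose (difference 0.89 ± 0.14), whereas BR1 was lower (-0.99 ± 0.10) and XTH5 (-0.15 ± 0.12) and XTH6 (0.33 ± 0.18) did not pass.

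Expansins loosen walls without cutting them. Of the 12 expansin genes in the list 5 rose, 1 fell and 6 did not pass. The gene exp9 stood at 1.46, 1.06 and 1.23 against -0.17, 0.14 and 0.033 (2.38-fold higher, adjusted p = 7.55e-05). EXP12 (0.77 ± 0.12), EXPA10 (0.52 ± 0.082) and EXPA3 (0.39 ± 0.084) rose by less. EXPA4 fell, from -0.030, -0.12 and 0.15 to -0.98, -1.09 and -0.91 (1.99-fold lower, adjusted p = 6.58e-05). EXP2 rose too (difference 0.26 ± 0.079), a call lost without 0 dpa replicate 2 (0.102), without 0 dpa replicate 3 (0.0593), without 10 dpa replicate 1 (0.064), without 10 dpa replicate 2 (0.0997), with a range over alternatives 0.0227 to 0.102. EXP1, the expansin gene of tomato ripening, was at 0.014 ± 0.10 (adjusted p = 0.935), and EXP5 (0.20 ± 0.083), EXPA6 (0.16 ± 0.12), EXPA8 (0.018 ± 0.086), exp11 (0.43 ± 0.18) and exp18 (0.18 ± 0.13) did not pass either. In this list 13 of the 16 calls were kept under every alternative.

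Genes acting on pectin, galactan and mannan gave 3 rises and 3 falls among 19, with 13 that did not pass and a median of -0.00033. Each share was 15.8%, background 17.7% and 26.4%. TBG7, a beta-galactosidase gene, stood at 1.60, 1.70 and 1.64 at 10 dpa and -0.076, 0.085 and -0.0088 at 0 dpa (3.13-fold higher, adjusted p = 9.93e-07). PMEU1, a pectin methylesterase gene, stood at 1.22, 1.27 and 1.49 against 0.18, -0.12 and -0.056 (2.51-fold, adjusted p = 2.64e-05). MAN2, an endo-mannanase gene known from germinating tomato seed, stood at 1.99, 1.84 and 1.91 against 0.92, -0.19 and -0.73 (3.76-fold, adjusted p = 0.00241). The arrays of 0 dpa were widely spread for MAN2, whose call was lost in the methods' t-test (adjusted p = 0.0613, range over alternatives 2.07e-05 to 0.0613). MAN2 was also the gene that passed of the 2 seed markers, the other being XET4 (-0.26 ± 0.15), which passed as lower without 0 dpa replicate 3 (adjusted p = 0.0257, range over alternatives 0.0257 to 0.5), and the part of growing seed in this was not tested. TAPG4, a polygalacturonase gene of the abscission zone, fell (-0.43 ± 0.074), and XYL1 fell (difference -0.89 ± 0.20), a call lost in the methods' t-test (adjusted p = 0.0934, range over alternatives 0.000306 to 0.0934). Genes known from ripening walls did not pass: PG2, a polygalacturonase gene, was at -0.0055 ± 0.10 (adjusted p = 0.977) and TBG4 at -0.015 ± 0.077 (adjusted p = 0.909).

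All fruit regulators that passed fell: 6 of 11 fell (54.5%, background 26.4%) and 5 did not pass, with a median of -0.37. The deepest fall of any gene with a symbol, LOC numbers included, was that of fsm1, which encodes a small MYB-like protein of very young tomato fruit. It stood at -3.16, -2.90 and -3.06 on the arrays of 10 dpa and at -0.052, -0.025 and 0.077 on those of 0 dpa, 8.22-fold lower (adjusted p = 6.14e-08). NAC1 stood at -0.78, -0.73 and -0.64 against -0.12, 0.11 and 0.015 (difference -0.72 ± 0.089, adjusted p = 0.000303), and TDR6, a MADS-box gene, was at -0.44 ± 0.079. The MADS-box gene TAGL1, which acts in flower organs and fruit, fell (difference -0.37 ± 0.12, adjusted p = 0.041), a call lost in the methods' t-test (0.151), after median centring (0.0514), without 0 dpa replicate 2 (0.118), without 0 dpa replicate 3 (0.124), without 10 dpa replicate 1 (0.133), without 10 dpa replicate 2 (0.107), with a range over alternatives 0.0161 to 0.151. The ripening regulators did not pass: RIN was at -0.13 ± 0.077 (adjusted p = 0.221), TDR4 at 0.11 ± 0.089 (adjusted p = 0.376) and NOR at 0.056 ± 0.084. In the methods' t-test 3 genes of this list passed.

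Of 13 cell cycle and DNA replication genes 4 rose, 1 fell and 8 did not pass, with a median of 0.08. The shares were 30.8% and 7.69%, background 17.7% and 26.4%. CDKB2, a cyclin-dependent kinase gene of mitosis, stood at 1.37, 1.21 and 1.24 at 10 dpa and -0.0061, 0.058 and -0.052 at 0 dpa (2.41-fold higher, adjusted p = 5.33e-06). CYCD3, a D-type cyclin gene of the entry into the cycle, stood at 0.51, 0.57 and 0.69 against -0.051, -0.020 and 0.070 (difference 0.59 ± 0.082, adjusted p = 0.000637). CycA2, an A-type cyclin gene, rose (difference 0.84 ± 0.18, adjusted p = 0.00672), a call lost in the methods' t-test (adjusted p = 0.0838, range over alternatives 0.00419 to 0.0838), where 3 genes of the list passed. The one that fell was cdc2A-2 (-0.39 ± 0.076). PCNA, the sliding clamp of replication, was at 0.19 ± 0.087 (adjusted p = 0.137), and the kinase inhibitor genes krp1 (-0.13 ± 0.11) and krp2 (-0.035 ± 0.077) did not pass.

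Of 7 auxin genes 2 rose, both of the Aux/IAA family of auxin-induced repressors, and 5 did not pass (median 0.09). The shares were 28.6% higher and 0% lower, background 17.7% and 26.4%. IAA17 stood at 0.99, 0.88 and 1.37 against -0.32, 0.27 and 0.053 (difference 1.08 ± 0.17, adjusted p = 0.00125). IAA16 stood at 1.44, 0.89 and 0.62 against 0.25, -0.073 and -0.18 (difference 0.98 ± 0.20, adjusted p = 0.0048), a call lost in the methods' t-test (adjusted p = 0.0748, range over alternatives 4.25e-07 to 0.0748), in which 1 gene of the list passed. The probe set read matters in this family. With the probe sets whose IDs hold S1 in place of A1, an alternative added after the values were seen, 4 genes passed. IAA16 was then at 1.91, IAA17 at 0.61 and IAA2 at 0.47, all higher, and IAA7 at -0.47, lower. A further probe set of IAA27 gave 1.03 (higher), against 0.083 ± 0.17 for the one used.

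Among 7 gibberellin, cytokinin and brassinosteroid genes 1 rose and 1 fell (14.3% each, background 17.7% and 26.4%), both for enzymes of gibberellin synthesis. GA20OX1, a gibberellin oxidase gene, stood at 0.88, 1.61 and 0.70 against 0.17, -0.18 and 0.0012 (2.09-fold higher, adjusted p = 0.00448), and was lost in the methods' t-test (adjusted p = 0.074, range over alternatives 0.002 to 0.074). GA3ox1, for the enzyme that completes the active hormone, fell (difference -0.49 ± 0.14, adjusted p = 0.0219), a call lost in the methods' t-test (0.122), without 0 dpa replicate 1 (0.0699), without 0 dpa replicate 2 (0.0684), without 10 dpa replicate 3 (0.0546), with a range over alternatives 0.00603 to 0.122. The list therefore held 1 gene past the threshold when 0 dpa replicate 1, 0 dpa replicate 2 or 10 dpa replicate 3 was left out, and the methods' t-test called 0 (2 at an unadjusted p under 0.05). GAI, a repressor of gibberellin responses, was at -0.040 ± 0.084 and did not pass. Of 7 abscisic acid genes (0% higher and 14.3% lower, background 17.7% and 26.4%), 1 fell and 6 did not pass. That was TAO3, an aldehyde oxidase gene (-0.41 ± 0.10, adjusted p = 0.0109), which was lost in the methods' t-test (adjusted p = 0.0551, range over alternatives 0.00528 to 0.0551), where 0 of the 7 passed (2 at an unadjusted p under 0.05). NCED1, of the committed step of abscisic acid synthesis, was at -0.30 ± 0.18 (adjusted p = 0.234) and TAS14, a dehydrin gene, at 0.25 ± 0.088 (adjusted p = 0.0527). Without 0 dpa replicate 1 or 0 dpa replicate 2, 2 abscisic acid genes passed, and TAS14 did so without the latter (adjusted p = 0.0359) and after median centring (0.0437), with a range over alternatives 0.0359 to 0.163.

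Sugar and starch genes gave 5 rises, 4 falls and 12 that did not pass among 21 (23.8% and 19.0%, background 17.7% and 26.4%). The gene sus3, for sucrose synthase, which splits imported sucrose in sinks, stood at 1.25, 1.42 and 1.34 at 10 dpa and 0.084, -0.11 and 0.023 at 0 dpa (2.53-fold higher, adjusted p = 6.06e-06). AGPL3, a large-subunit gene of ADP-glucose pyrophosphorylase, the first enzyme of starch synthesis, stood at 1.16, 1.27 and 1.06 against 0.24, 0.22 and -0.46 (2.24-fold, adjusted p = 0.000957). The cell wall invertase gene lin5 stood at -1.09, -0.91 and -0.72 against -0.22, 0.057 and 0.16 (1.87-fold lower, adjusted p = 0.000637). The sucrose synthase gene was thus higher and the invertase gene lower, on arrays that did not overlap. CIF1, an invertase inhibitor gene (0.53 ± 0.091), and FRK2, a fructokinase gene (0.44 ± 0.073), rose. SPS, sucrose phosphate synthase (-0.025 ± 0.072), and the sucrose transporter genes SUT2 (0.020 ± 0.078) and SUT4 (-0.013 ± 0.078) did not pass. Without 0 dpa replicate 2, 5 genes of the list passed.

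In the phenylpropanoid and flavonoid list 3 genes rose, 3 fell and 3 did not pass (33.3% each, background 17.7% higher and 26.4% lower). The gene hqt, for the acyltransferase of chlorogenic acid, the main phenolic of eggplant flesh, stood at 0.60, 0.98 and 0.70 against 0.043, -0.010 and -0.033 (difference 0.76 ± 0.11, adjusted p = 0.000639). The chalcone synthase genes, at the entry to flavonoids, were split. CHS1 stood at -0.58, -0.53 and -0.53 against 0.23, -0.15 and -0.082 (difference -0.54 ± 0.11, adjusted p = 0.004), and CHS2 at 1.43, 0.83 and 0.87 against 0.18, 0.31 and -0.49 (difference 1.04 ± 0.22, adjusted p = 0.00648). CHS2 was lost in the methods' t-test (adjusted p = 0.0876, range over alternatives 0.00528 to 0.0876), which left 3 genes of the list. DFR, dihydroflavonol reductase of the anthocyanin branch, fell (difference -0.42 ± 0.13, adjusted p = 0.0369), a call lost in the methods' t-test (0.153), without 0 dpa replicate 1 (0.0652), without 0 dpa replicate 2 (0.108), without 10 dpa replicate 1 (0.117), without 10 dpa replicate 3 (0.1), with a range over alternatives 0.0134 to 0.153.

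Lipoxygenase, jasmonate and volatile genes gave 3 rises, 3 falls and 9 that did not pass among 15 (20% and 20%, background 17.7% and 26.4%). The lipoxygenase gene loxC, of the path to fruit volatiles in tomato, stood at 1.25, 1.29 and 1.22 at 10 dpa and 0.047, -0.015 and -0.032 at 0 dpa (2.38-fold higher, adjusted p = 3.4e-06). ADH2, an alcohol dehydrogenase gene of the same path, rose (difference 0.56 ± 0.088). In the jasmonate branch AOS, allene oxide synthase, rose (0.38 ± 0.081) and AOC, allene oxide cyclase, fell (-0.52 ± 0.079), with arrays at -0.48, -0.49 and -0.58 against 0.025, 0.061 and -0.086. Fad7, a plastid fatty acid desaturase gene upstream of both, fell (-0.55 ± 0.093).

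Of the 7 genes in the mevalonate, sterol and terpene list 1 rose and 2 fell (14.3% and 28.6%, background 17.7% and 26.4%). FPPS1, farnesyl diphosphate synthase, rose (difference 0.55 ± 0.10, adjusted p = 0.00316). FTB, the beta subunit of protein farnesyltransferase, fell (-0.49 ± 0.12, adjusted p = 0.01), a call lost in the methods' t-test (adjusted p = 0.0716, range over alternatives 0.00395 to 0.0716), where 1 of the 7 passed. The other that fell was SSTLE1, a sesquiterpene synthase gene (-0.49 ± 0.17, adjusted p = 0.0466), which was lost in the methods' t-test (0.196), after median centring (0.0519), without 0 dpa replicate 1 (0.145), without 0 dpa replicate 2 (0.144), without 10 dpa replicate 1 (0.0676), without 10 dpa replicate 2 (0.111), without 10 dpa replicate 3 (0.122), with a range over alternatives 0.00127 to 0.196. HMGR, of the controlling step of the mevalonate pathway, was at -0.20 ± 0.077 and did not pass.

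**Figure D3:**
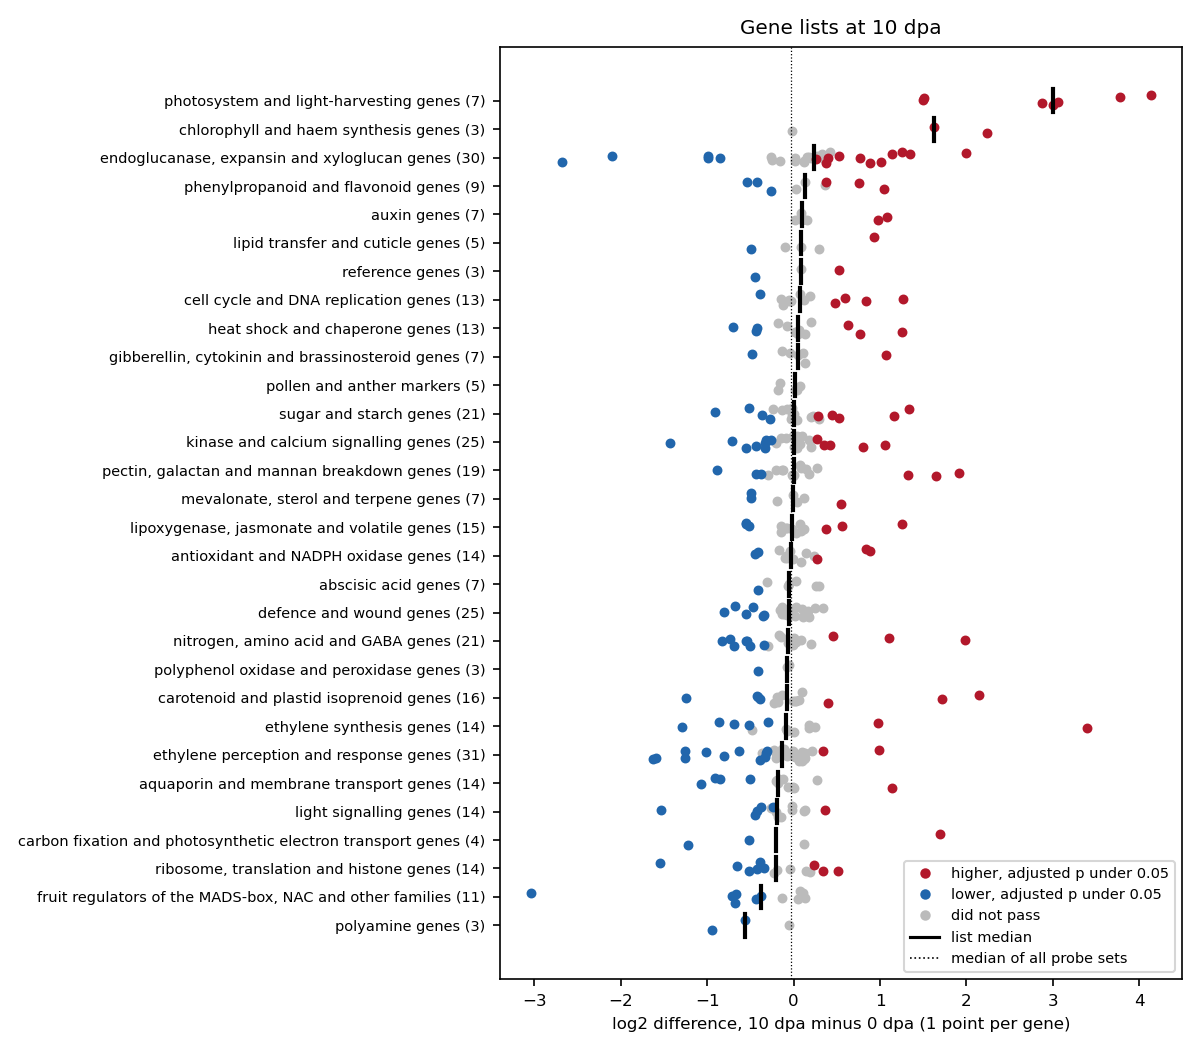
Log2 difference of 10 dpa minus 0 dpa (horizontal axis) for each gene of the lists with at least 3 measured genes, with the number of genes in brackets; red points rose, blue points fell, grey points did not pass, black bars are list medians and the dotted line is the median of all probe sets (-0.03). The photosystem list has the highest median (3.00), and most lists hold both rises and falls.

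Kinase and calcium signalling genes gave 5 rises, 8 falls and 12 that did not pass among 25 (20% and 32%, background 17.7% and 26.4%). The MAP kinase kinases, the middle tier of their cascades, were divided. MKK4 stood at -1.40, -1.41 and -1.47 at 10 dpa and -0.023, -0.042 and 0.065 at 0 dpa (2.69-fold lower, adjusted p = 1.7e-06). MKK3 stood at 1.14, 1.13 and 0.92 against 0.11, 0.092 and -0.20 (2.09-fold higher, adjusted p = 0.000104), and MKK2 was at 0.18 ± 0.093 and did not pass. TFT6, of the phosphoserine-binding 14-3-3 proteins, rose (0.81 ± 0.082, adjusted p = 9.91e-05), as did TFT3 (0.35 ± 0.078). Its relatives tft4 (-0.34 ± 0.078) and tft10 (-0.33 ± 0.071) fell.

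In light signalling 1 of 14 genes rose and 5 fell (7.14% and 35.7%, background 17.7% and 26.4%). CIP2b, for a protein that binds the light-signalling repressor COP1, stood at -1.48, -1.49 and -1.63 against -0.067, 0.0059 and 0.061 (2.89-fold lower, adjusted p = 1.82e-06). The photoreceptor genes CRY1A (-0.44 ± 0.071, adjusted p = 0.00138) and PHYA (-0.42 ± 0.089) fell, although a further CRY1A probe set was at -0.15 and did not pass. HY5, a transcription factor that promotes greening, was at -0.20 ± 0.12, and COP1 at -0.023 ± 0.074, neither of them passing. Without 0 dpa replicate 1 or 10 dpa replicate 3, 3 genes of this list passed.

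Of 14 aquaporin and membrane transport genes 1 rose and 4 fell (7.14% and 28.6%, background 17.7% and 26.4%). Aqp2, an aquaporin gene, stood at 1.21, 1.15 and 1.08 at 10 dpa and 0.045, 0.011 and -0.055 at 0 dpa (2.21-fold higher, adjusted p = 7.99e-06). PT1, a phosphate transporter gene, stood at -1.04, -1.06 and -1.10 against -0.034, 0.15 and -0.12 (2.1-fold lower, adjusted p = 3.04e-05). LHA1, a proton pump gene of the plasma membrane (-0.86 ± 0.081), and NRAMP3, a metal transporter gene (-0.91 ± 0.085), fell, and the aquaporin gene pip1 was at -0.068 ± 0.12 and did not pass.

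Antioxidant genes gave 3 rises and 2 falls among 14 (21.4% and 14.3%, background 17.7% and 26.4%). The catalase gene cat1, whose product removes hydrogen peroxide in peroxisomes, stood at 0.88, 0.87 and 0.89 against 0.022, -0.048 and 0.026 (1.84-fold higher, adjusted p = 2.64e-05). SODCP.2, a plastid superoxide dismutase gene, rose (difference 0.84 ± 0.18, adjusted p = 0.00705), a call lost in the methods' t-test (adjusted p = 0.0859, range over alternatives 0.00342 to 0.0859). The glutathione peroxidase gene GPXle-1 (-0.45 ± 0.094) and the peroxidase gene TPX2 (-0.41 ± 0.075, adjusted p = 0.00273) fell. TPx1, listed with the peroxidases, was at -0.071 ± 0.084 (adjusted p = 0.571).

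Of 25 defence and wound genes 6 fell (24%) and 19 did not pass, with a median of -0.05. The background share of falls was 26.4%, and that of all probe sets 19.4%. CHI9, a chitinase gene, stood at -0.79, -0.90 and -0.71 against 0.11, 0.016 and -0.12 (1.74-fold lower, adjusted p = 0.000196), and LAPA1, already given, fell too (adjusted p = 0.00104). WRKY2 fell (difference -0.67 ± 0.16, adjusted p = 0.00987), a call lost in the methods' t-test (adjusted p = 0.0923, range over alternatives 0.00259 to 0.0923), where 2 of the 25 passed. Without 0 dpa replicate 2 or 10 dpa replicate 1, 3 passed. The pathogenesis-related genes PR1b1 (-0.11 ± 0.079), PR-5 (-0.15 ± 0.12) and P4 (-0.045 ± 0.10) did not pass.

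Heat shock and chaperone genes gave 3 rises, 3 falls and 7 that did not pass (23.1% and 23.1%, background 17.7% and 26.4%). The small heat shock protein genes were split: vis1 stood at 1.69, 1.44 and 0.61 against -0.31, -0.10 and 0.41 (2.38-fold higher, adjusted p = 0.00711) and was lost in the methods' t-test (adjusted p = 0.0948, range over alternatives 0.0012 to 0.0948), whereas HSP17-6 fell (-0.70 ± 0.11, adjusted p = 0.0011). FKBP12, for a peptidyl-prolyl isomerase (0.77 ± 0.084, adjusted p = 0.000153), and CPN21, for a plastid co-chaperonin (0.63 ± 0.11), rose. HSC80, a cytosolic chaperone gene, fell (-0.42 ± 0.10).

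Of 14 ribosome, translation and histone genes 3 rose and 6 fell (21.4% and 42.9%, background 17.7% and 26.4%), with a median of -0.21. PDF1B, for an organellar peptide deformylase, which takes the formyl group off new proteins, stood at -1.61, -1.35 and -1.68 at 10 dpa and -0.27, 0.15 and 0.12 at 0 dpa (2.93-fold lower, adjusted p = 3.45e-05). Among initiation factor genes eIF-5A1 (-0.65 ± 0.079, adjusted p = 0.000281), eIF-5A2 (-0.34 ± 0.078) and eIF4E1 (-0.52 ± 0.087) fell. Without 0 dpa replicate 2, 5 genes of the list passed.

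Of 3 polyamine genes 2 fell (66.7%, background 26.4%): ODC, ornithine decarboxylase (difference -0.57 ± 0.087, adjusted p = 0.00111), and adc1, arginine decarboxylase (-0.95 ± 0.13, adjusted p = 0.000535). The other adc1 probe sets gave -1.76 (lower), -0.47 (lower) and -0.33 (did not pass), and ADC was at -0.056 ± 0.073. In the lipid transfer and cuticle list TPRP-F1, a proline-rich protein gene of young tomato fruit, rose (0.93 ± 0.11, adjusted p = 0.000261), with arrays at 0.81, 0.97 and 1.01 against -0.050, -0.17 and 0.22. TSW12, a lipid transfer protein gene, fell (-0.49 ± 0.11, adjusted p = 0.00719), a call lost in the methods' t-test (adjusted p = 0.0548, range over alternatives 0.0071 to 0.0548), where 1 gene of the list passed. Of genes often used as references, TUB rose (0.52 ± 0.076, adjusted p = 0.0008), UBC27 fell (-0.44 ± 0.086, adjusted p = 0.00385) and ACT was at 0.081 ± 0.078 and did not pass. The chip's control probe sets for actin, left out of the counts, were all higher at 10 dpa. Their differences were 0.32 (3' end), 0.69 (5' end) and 0.77 (middle), so the reading of actin depends on the probe set.

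The flower of 0 dpa could bring pollen or anther remains, and 5 such markers were measured. Of these, 0 passed in limma, 0 had an unadjusted p under 0.05 and 0 passed in the methods' t-test. LAT61 was at -0.18 ± 0.10 (adjusted p = 0.2), PRK3 at -0.15 ± 0.093 (adjusted p = 0.25), LIN7 at 0.041 ± 0.13, PRK1 at 0.074 ± 0.13 and PRK2 at 0.014 ± 0.078. With no signal level in the values, markers too dim to read in both stages would also give small differences. Whether such remains were present therefore cannot be read from these values.

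Prg1, for which no role is given here, was the remaining gene among the 12 largest falls of genes without a LOC number, at -1.40, -1.29 and -1.19 against 0.063, -0.26 and 0.19 (2.45-fold lower, adjusted p = 6.07e-05). Of the 9192 probe sets without a symbol, 1442 rose and 1734 fell, shares close to those over all probe sets, and some moved further than any named gene. The largest rise among them was 5.39 (41.9-fold), with arrays at 5.37, 5.38 and 5.42 at 10 dpa, and the next was 5.07. The deepest fall was -4.30 (19.6-fold lower), with arrays at -4.33, -4.31 and -4.24, and the next was -3.77. Among genes known only by a LOC number, 3.17 for LOC543698 and 1.85 for LOC543645 were the largest rises, and -2.14 for LOC544276 and -1.47 for LOC543517 the deepest falls.

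The stages on either side were normalised with the same arrays of 0 dpa in sets of their own, so their values share those controls and are given side by side with no test. ACO5 was at 0.83 at 5 dpa, 3.40 at 10 dpa and 6.36 at 20 dpa, and MAN2 at 0.71, 1.91 and 3.81. For PSBP the values were 3.41, 4.14 and 3.74, and for PsbQ 2.55, 3.77 and 2.62. All 6 photosystem and chlorophyll genes among these 12 largest rises had their highest value of the 3 stages at 10 dpa, as did GS2 (1.34, 1.98 and 0.46) and CRTL-E-1 (1.40, 2.15 and 0.56). These genes were picked by their 10 dpa difference, which favours a highest value at that stage. Over the whole list of 7 photosystem and light-harvesting genes, the medians were 2.22, 3.00 and 2.45 at 5, 10 and 20 dpa. That list is not free of the picking, since PSBP, PsbQ, CAB6A, PSBO and CAB4 are in both. CIP2b was at -1.32 and -1.53 at 5 and 10 dpa and at -0.13 at 20 dpa. Prg1 was at -0.18 at 5 dpa, -1.29 at 10 dpa and -1.67 at 20 dpa. For fsm1 the values were -3.18, -3.04 and -3.13, and for Cel1 -0.94, -2.68 and -3.30.

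**Figure D4:**
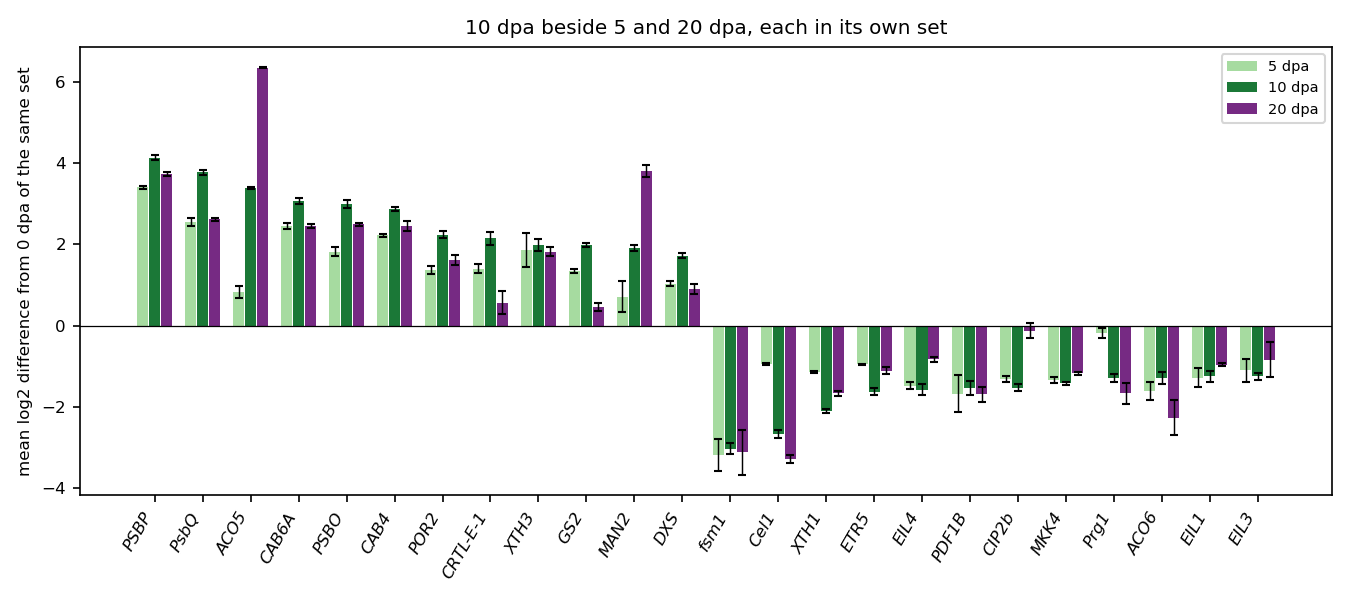
Mean log2 difference from the 0 dpa arrays of the same set (vertical axis) at 5, 10 and 20 dpa for the genes with the 12 largest rises and 12 largest falls at 10 dpa, LOC numbers left out; bars are means and error bars the standard deviation of 3 arrays, and the sets were normalised separately. ACO5 and MAN2 are higher at 20 than at 10 dpa, while the photosystem genes shown, GS2 and DXS are highest at 10 dpa, the stage by which the genes were picked.

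Control probe sets on these arrays also differed between the stages. Of 21 for bioB, bioC and bioD, transcripts added at hybridisation, 20 passed as lower at 10 dpa (median -0.485), and of 42 for bacterial labelling spikes 9 did (median -0.259). The 25S ribosomal RNA control was at -1.81 ± 0.27 (adjusted p = 0.000871), with arrays at -2.47, -1.80 and -1.16. The 5' probe set stood higher against the 3' probe set than at 0 dpa, by 0.366 for actin (0.536, 0.517 and 0.0458 at 10 dpa) and by 0.692 for GAPDH (0.789, 0.755 and 0.532). The part of these shifts in the results above was not tested.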

How the data were processed

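The authors deposited log2 values. The series design text names RMA in GeneSpring GX 11.5, which corrects background, applies quantile normalisation and summarises probes by median polish, and the submitters' processing notes list RMA too. Per the labels, each later stage has its own normalisation of the 0 dpa arrays, and that of 10 dpa was used. Centring, found from the values, leaves no signal level, so neither a filter on dim probe sets nor a pseudocount applies. Centring is stated nowhere in the sources used here, and positive was taken as higher expression. The column medians of the 6 arrays lay between -0.0131 and 0.0109, and the number of arrays limits the precision.

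The groups were compared with two-sided tests of limma 3.58.1 (functions lmFit and eBayes, R 4.3.3), with Benjamini-Hochberg adjustment over 10101 probe sets. The code was tested on simulated data. Symbols came from the platform annotation of 2007. Where a gene had several probe sets (83 genes), a single one stood for it, chosen by ID alone. An ID ending in _at without _s_, _x_ or _a_ before it came first, then Les. before LesAffx., then alphabetical order. The last step put A1 before S1 IDs, which is no choice by specificity, and for some genes the call differed between them. Of the 83 genes, 45 had the same outcome on every probe set, but for most of the 45 that outcome was not passing. The other 38 passed on some of their probe sets and not on others. Among genes that passed on any probe set, disagreement between probe sets was thus more common than agreement. Tomato probes can bind eggplant transcripts more weakly, or those of a related gene.

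Genes were named by a rule: the 12 largest rises and 12 largest falls past the threshold without overlap of arrays among genes whose symbol is not a LOC number, at most 2 rises and 2 falls of LOC numbers and of probe sets without a symbol, per list of at least 3 genes the 2 smallest p and the 2 largest changes, a fixed set (fsm1, RIN, TDR4, TAGL1, E8, ACS2, Psy1, CHS1, DFR, EXP1, PG2, TBG4, PCNA and lin5), and other list members for comparison. The members and lists were chosen with earlier results of these data known. Symbols matched to a list by spelling alone were taken out, and 6 lists were added from the symbols later and stand in the closing observations.

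The alternatives were the methods' unpaired t-test, the replicate number as a block, median centring of arrays, robust eBayes, each of the 6 arrays left out, the mean of a gene's probe sets and, added after the values were seen, S1 before A1 probe sets. Deviations from the group means of arrays with the same replicate number had correlations of 0.0451, -0.000319 and 0.102. For arrays with different numbers they lay between -0.0865 and 0.0463. With 3 arrays a group these values cannot settle whether the numbers pair the samples. Figures were drawn with matplotlib 3.10.9.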

Additional observations from a re-analysis of the deposited data

How the results depend on the processing

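Over all probe sets, 2650 passed in the methods' t-test (1225 higher, 1425 lower; 3922 at an unadjusted p under 0.05, against 4405 in limma), 3533 after median centring (1685 higher, 1848 lower), 3532 with robust eBayes and 2939 to 3122 with 1 array left out. With the replicate block 3403 passed (1536 higher, 1867 lower), and the numbers are not known to pair the samples. Of 187 list or named genes past the threshold, 120 passed under every alternative and 0 changed sign. Lists whose counts moved by over 1.5 times in the t-test then held these genes past the threshold: fruit regulators 3, cell cycle 3, auxin 1, gibberellin, cytokinin and brassinosteroid 0 (2 at an unadjusted p under 0.05), abscisic acid 0 (2), mevalonate 1, phenylpropanoid 3, lipid transfer 1, defence 2, metallothionein 1, and KNOX and meristem 0 (3). Median centring gave 2 abscisic acid genes and S1 before A1 probe sets 4 auxin genes. With 1 array left out, the ranges were 1 to 2 for gibberellin, cytokinin and brassinosteroid, 1 to 2 for abscisic acid, 3 to 5 for light signalling, 5 to 9 for sugar and starch, 3 to 7 for defence, and 5 to 7 for ribosome and translation genes. The cause of these changes was not tested, and a fit that leaves 1 array out also holds fewer arrays. With 3 arrays a group and no signal level left, the depth behind a value is unknown. The smallest difference past the threshold was 0.215.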

Other observations

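Further gene groups, assembled from the symbols after the values could be seen, held changes not described above. The background for their counts was 17.7% higher and 26.4% lower. All 5 phospholipase D genes, whose products release phosphatidic acid from membranes, fell: PLDb1 was at -0.75 ± 0.073, PLDa1 at -0.42 ± 0.080 and PLDb2 at -0.32 ± 0.077, while PLDa3 (-0.59 ± 0.14) was lost in the methods' t-test (adjusted p = 0.0847, range over alternatives 0.000757 to 0.0847). The fall of PLDa2 (-0.25 ± 0.077) was lost without 0 dpa replicate 1 (0.111), without 0 dpa replicate 2 (0.0544), without 0 dpa replicate 3 (0.0584), without 10 dpa replicate 1 (0.0938), without 10 dpa replicate 2 (0.0567), without 10 dpa replicate 3 (0.0779), with a range over alternatives 0.0284 to 0.111. Of 9 small GTPase genes 1 rose and 4 fell (11.1% and 44.4%). Rab1C (-0.81 ± 0.092), RAB1B (-0.46 ± 0.084) and Rab11a (-0.39 ± 0.080), of vesicle traffic, fell, and SAR2, of vesicle budding at the endoplasmic reticulum, rose (0.45 ± 0.089). Of 5 malate dehydrogenase genes 3 rose (60%) and 2 did not pass, with mdh at 1.06, 1.00 and 0.95 at 10 dpa against -0.038, 0.12 and -0.079 at 0 dpa (2-fold higher, adjusted p = 3e-05). In ascorbate synthesis and recycling, MDHAR, monodehydroascorbate reductase, rose (0.92 ± 0.14), as did DHAR2 (0.33 ± 0.071), and DHAR1, also a dehydroascorbate reductase gene, fell (-0.55 ± 0.079). GMP, of ascorbate synthesis, was at -0.034 ± 0.085 on the probe set used and at 0.90 (higher) on another. Of 4 metallothionein genes 2 fell (50%), MT4 (-0.48 ± 0.073) and MT2 (-0.73 ± 0.14), the latter not in the methods' t-test (adjusted p = 0.0516, range over alternatives 0.00323 to 0.0516). Of 9 KNOX and meristem genes 3 fell in limma (33.3%, near the background), and the methods' t-test called 0 (3 at an unadjusted p under 0.05).

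Some genes outside all lists also moved, and are named after their values were seen. The flower-organ MADS-box gene AG1 stood at -1.18, -0.94 and -1.13 at 10 dpa and at -0.26, 0.19 and 0.075 at 0 dpa, 2.12-fold lower (adjusted p = 0.000219), whereas its relative AGL11 was at -0.20 ± 0.12 and did not pass. The MYB gene THM27 (-1.14 ± 0.10, adjusted p = 4.66e-05), DREB3 (-1.06 ± 0.13, adjusted p = 0.000331) and AREB1 (-0.87 ± 0.12, adjusted p = 0.000658), for transcription factors of families known from drought and abscisic acid responses in the latter pair, were lower. Higher were kdsA, of the synthesis of a rare pectin sugar (1.09 ± 0.090, adjusted p = 2.63e-05), and CITRX, a thioredoxin gene (0.99 ± 0.073, adjusted p = 1.44e-05). Each of these calls held under all 12 alternatives.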
